A study of Homo sapiens with 4 samples.

Results

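MicroRNA host noncoding transcripts are long RNAs that are not translated and that carry microRNA hairpins within them. The 4 host genes described here are MIR17HG, MIR22HG, DLEU2 and MIRLET7BHG. Their poly(A) regions were chosen by position: a region belonged to a host if it lay, on the strand of the host, wholly inside a window of the hg19 build. The windows were 91999 to 92008 kb on the plus strand of chromosome 13 for MIR17HG, 1614 to 1620 kb on the minus strand of chromosome 17 for MIR22HG, 50555 to 50701 kb on the minus strand of chromosome 13 for DLEU2, and 46449 to 46511 kb on the plus strand of chromosome 22 for MIRLET7BHG. They held 9 of the 31081 regions in the table: 1 for MIR17HG, 4 for DLEU2 and 4 for MIRLET7BHG. The MIR22HG window held no region and is not scored.

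The study sequenced poly(A) sites, the junctions between an RNA and its poly(A) tail, in 4 libraries of DICER(ex5) cells. The line, made from HCT116 cells of a human colon cancer, is labelled a DICER hypomorph, meaning that Dicer function is reduced rather than lost. The libraries are described as biological replicates and form a single group, with no parental line or other control among the samples analysed here, so that no value below measures an effect of DICER. All libraries share this DICER background.

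The primary transcript of a microRNA is normally capped and polyadenylated. Drosha cuts the hairpin out of it in the nucleus, and Dicer then cuts the exported hairpin into the mature microRNA. A poly(A) read from a host therefore reports a polyadenylated 3' end of the long transcript and not the amount of mature microRNA, and Dicer acts after Drosha has cut the host. MIR17HG carries the miR-17-92 cluster, known as an oncogenic cluster that MYC induces. DLEU2 lies in a region of chromosome 13 often deleted in chronic lymphocytic leukaemia and carries miR-15a and miR-16, which restrain BCL2 and G1 cyclins. MIR22HG carries miR-22, and MIRLET7BHG carries members of the let-7 family, which restrain RAS genes and HMGA2.

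The mature sequences are shown because they are what these transcripts are known for, and because they show which hosts feed the same seed. All 11 were matched by name in RefSeq (GRCh38.p14). Capitals mark the seed, bases 2 to 8 from the 5' end, which directs target choice. For MIR17HG the sequences fell into 4 seeds. The first is shared by miR-17 and miR-20a, and the next by miR-19a and miR-19b. Those of miR-18a and miR-92a were found for no other member.
miR-17-5p: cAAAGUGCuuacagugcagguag
miR-20a-5p: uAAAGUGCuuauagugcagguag
miR-18a-5p: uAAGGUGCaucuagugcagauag
miR-19a-3p: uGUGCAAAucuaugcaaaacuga
miR-19b-3p: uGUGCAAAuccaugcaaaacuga
miR-92a-3p: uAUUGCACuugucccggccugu

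Among the microRNAs shown here, DLEU2 carries a pair with a common seed, as does MIRLET7BHG, while MIR22HG carries a single one. The sequences of miR-3613 in DLEU2 and of miR-3619 and miR-4763 in MIRLET7BHG are not shown. The pairs are shown to set their shared seed beside the bases that differ.
miR-15a-5p: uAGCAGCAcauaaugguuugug
miR-16-5p: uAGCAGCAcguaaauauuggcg
let-7a-5p: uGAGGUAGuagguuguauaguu
let-7b-5p: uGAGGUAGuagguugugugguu
miR-22-3p: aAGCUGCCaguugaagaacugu

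Among the 11 sequences shown, which held 7 seeds, none was shared between hosts. The other arm of each hairpin, and miR-3613, miR-3619 and miR-4763, were not compared. Counted from the 5' end, miR-17-5p and miR-20a-5p differed by C1U and C12U, miR-19a-3p and miR-19b-3p by U11C, and let-7a-5p and let-7b-5p by A17G and A19G. The pair from DLEU2 differed at 6 of 22 positions, all 3' of the seed. Some of these mature sequences also come from other genes. The RefSeq table lists the let-7a-5p sequence at 3 genes, and those of miR-16-5p, miR-19b-3p and miR-92a-3p at 2 genes each, so the level of a host is not the only source of its microRNA.

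The table held 2163977 to 5713530 reads per library, and the 9 host regions held 1432 reads, 0.00839% of all. Levels are given as CPM, reads scaled to a library total of 1000000; a transcript end is read once whatever the length of the transcript, so CPM was not divided by length. Over all regions, libraries 1 and 2 correlated with a Pearson's r of 0.97 in log2(CPM + 1), and libraries 3 and 4 with 0.98, while the remaining pairs gave 0.84 to 0.87. Regions are not independent replicates. The labels give no batch for this division. Each value is therefore printed by library. Means with either pair alone are given after the results by host. The colon epithelial identity of the cells could not be checked on marker genes, since no hg19 annotation was used here.

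MIR17HG had a single poly(A) region, of 28 bases, at chr13:92006815-92006842 on the plus strand, 7842 bases from the 5' edge of its 9 kb window. It was read 45, 15, 42 and 17 times in libraries 1 to 4. The levels were 8.64, 6.93, 7.35 and 4.27 CPM, with a mean of 6.80 ± 1.84 CPM (SD, n = 4). Library 4 was the lowest and library 1 the highest. The exact 95% Poisson interval was 2.49 to 6.83 CPM in library 4 and 6.30 to 11.6 CPM in library 1, so that these intervals overlapped. The ratio of library 1 to library 4 was 2.02, with a 95% interval of 1.17 to 3.51 (Wilson, from the reads of these libraries), which does not allow for their choice as the highest and the lowest. Sampling of reads alone would give an SD of 1.37 CPM at this level and depth. As the RNA came from bulk cells, fewer cells with the transcript and less of it per cell cannot be told apart. In the RefSeq table all 6 hairpins of the cluster lie inside the gene on its strand, and no other gene overlaps it. The nearest region on the plus strand outside the window was 169 kb away, so the choice of window edges did not decide the count.

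DLEU2 had 4 poly(A) regions, all within 894 bases of its 146 kb window, measured between 3' ends. From 5' to 3' on the minus strand they are called ends 1 to 4, with 3' ends that followed each other at 424, 401 and 69 bases. These 3' ends lay 82543 to 83437 bases from the 5' edge of the window. No region was scored between end 4 and the 3' edge of the window. End 2, at chr13:50618033-50618067, was the strongest. It was read 111, 40, 104 and 87 times in libraries 1 to 4, or 21.3, 18.5, 18.2 and 21.8 CPM, with a mean of 20.0 ± 1.88 CPM (SD, n = 4). The 4 libraries lay within 1.20-fold of each other at this end.

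The other DLEU2 ends were weaker in every library. End 1, at chr13:50618457-50618507, had 11, 5, 15 and 12 reads and averaged 2.51 ± 0.393 CPM (SD, n = 4). End 3, at chr13:50617632-50617659, had 34, 11, 33 and 33 reads and averaged 6.42 ± 1.38 CPM. Library 4 was the highest at both, and at end 1 the SD was below the 0.825 CPM that counting alone would give. End 4, the most 3' one, at chr13:50617563-50617585, had 47, 12, 40 and 32 reads and averaged 7.40 ± 1.49 CPM (SD, n = 4), with library 1 the highest. Ends 3 and 4 were not separated by their spread: end 4 was the higher in libraries 1, 2 and 3 and end 3 in library 4.

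**Figure D1:**
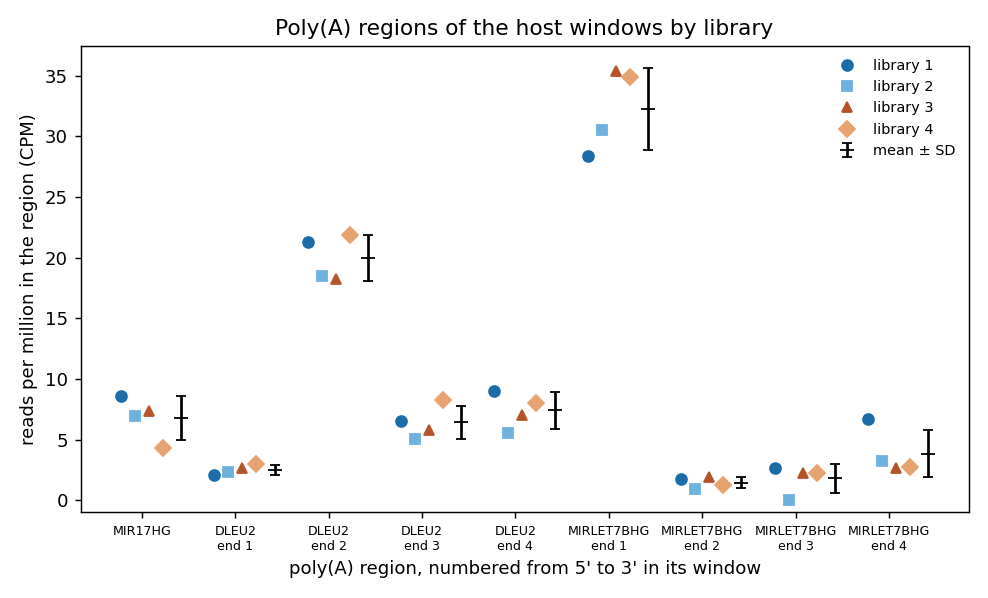
Level in CPM (y axis, linear) at each of the 9 poly(A) regions (x axis, numbered from 5' to 3' in each window); symbols are the 4 libraries, and the black mark with its bar is their mean ± SD. End 1 of MIRLET7BHG and end 2 of DLEU2 stand above the other regions in all 4 libraries, and library 1 lies above the rest at end 4 of MIRLET7BHG.

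The division of DLEU2 reads among its ends was alike in the 4 libraries. End 2 took 54.7%, 58.8%, 54.2% and 53.0% of the reads in libraries 1 to 4, or 55.2% ± 2.52 (SD, n = 4). The most 3' end took 23.2%, 17.6%, 20.8% and 19.5%, or 20.3% ± 2.32 (SD, n = 4), and end 1 took 6.98% ± 1.06. Counting error alone would give SDs of 4.38 percentage points for end 2 and 3.58 for end 4, so no spread beyond sampling was detected in usage. The 95% Wilson intervals of the highest and the lowest library overlapped at each of the 4 ends. All 4 passed a minimum of 10 reads in all and 5% of the reads of the window.

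Joined within 5 kb, the DLEU2 regions formed a single locus. Among the 522 loci of the table with exactly 4 passing regions and at least 100 reads, the ends spanned a median of 2793.5 bases, and 10.3% of these loci had a smaller span than the 894 bases of DLEU2. In DLEU2, with the libraries pooled, 54.5% of the reads fell in the strongest region, against a median of 49.7% in these loci. In the RefSeq table the hairpins of miR-15a, miR-16-1 and miR-3613 lie inside DLEU2 on its strand. Their distance to the poly(A) regions was not measured, since RefSeq positions are on another build.

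The opposite strand of the DLEU2 window was read as well. RefSeq places TRIM13, a ubiquitin ligase gene, KCNRG, a regulator of potassium channels, and the long noncoding DLEU1 across DLEU2, and lists KCNRG and DLEU1 on the plus strand. The plus strand held 5 regions in the window, all at least 22.5 kb from the nearest DLEU2 region, with 417, 162, 529 and 338 reads in libraries 1 to 4. Which of these genes each region belongs to was not determined. The minus strand gave 36.3 ± 4.54 CPM against 83.1 ± 7.54 CPM on the plus strand (SD, n = 4). The strongest plus-strand region, chr13:50679415-50679442, had 35.3, 27.3, 49.0 and 45.7 CPM in libraries 1 to 4. The next, chr13:50587277-50587318, had 33.8, 41.1, 28.7 and 26.4 CPM. These regions moved in opposite directions between the pairs of libraries, which the SD of the sum does not show. The minus strand was the lower in 4 of 4 libraries, at 0.487, 0.420, 0.363 and 0.485 of the plus strand, a mean log2 ratio of -1.20 ± 0.20 (SD, n = 4). The exact two-sided sign-flip permutation p was 0.13, the smallest that 4 libraries allow. Neither the MIR17HG, the MIRLET7BHG nor the MIR22HG window had a region on its opposite strand.

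MIRLET7BHG had 4 poly(A) regions spread over 56715 bases of its 62 kb window, so that each formed a locus of its own when regions within 5 kb were joined. End 1, at chr22:46453060-46453100, was the strongest of all 9 host regions. It was read 148, 66, 202 and 139 times in libraries 1 to 4, or 28.4, 30.5, 35.4 and 34.9 CPM, with a mean of 32.3 ± 3.39 CPM (SD, n = 4). Libraries 1 and 2 lay below libraries 3 and 4 at this end, by less than the width of their 95% Poisson intervals, which overlapped.

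The 3 ends further 3' were weak. End 2, at chr22:46476780-46476797, had 9, 2, 11 and 5 reads and averaged 1.46 ± 0.453 CPM (SD, n = 4). It failed the 5% minimum with 3.94% of the reads of the window. Its highest count, 11 reads in library 3, equals the lowest peak of any region in the table. End 3, at chr22:46501875-46501903, had 14, 0, 13 and 9 reads. It was the only host region without reads in some library; in the deposited data, 91.3% of regions had reads in every library. The count of 0 in library 2 allows a level of up to 1.39 CPM (3 counts), against 2.69, 2.28 and 2.26 CPM in libraries 1, 3 and 4. By exact 95% Poisson intervals, library 2 reached up to 1.70 CPM and the others began at 1.47, 1.21 and 1.03 CPM, so that all of them overlapped with it.

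End 4 of MIRLET7BHG, at chr22:46509800-46509815, was read 35, 7, 15 and 11 times, or 6.72, 3.23, 2.63 and 2.76 CPM, with a mean of 3.83 ± 1.94 CPM (SD, n = 4). Library 1 was the highest, and the other 3 lay close together. Among the reads of the 3 passing ends, end 4 took 17.8% in library 1 (95% Wilson interval 13.1% to 23.7%), 9.59% in library 2 (4.72% to 18.5%), 6.52% in library 3 (3.99% to 10.5%) and 6.92% in library 4 (3.91% to 12.0%). The mean was 10.2% ± 5.23 (SD, n = 4), where counting error alone would give an SD of 2.61 percentage points, and over these same 3 ends the mean was 7.68% without library 1. End 1 took the complement for the most part, with 75.1%, 90.4%, 87.8% and 87.4%, or 85.2% ± 6.84 (SD, n = 4).

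The intervals of libraries 1 and 3 did not overlap for end 4, so MIRLET7BHG was the 1 of the 2 hosts with several ends whose distal share differed between libraries beyond its counting intervals. The table held 5069 loci that had several passing regions, 100 reads or more in all and no empty library. The extreme libraries were apart in this way at 30.9% of them, and at 24.0% of those with 100 to under 1000 reads. A case of this kind is thus common in the table, and this comparison is between libraries, not conditions. Background loci had their regions within 5 kb, unlike MIRLET7BHG. Most reads behind the MIRLET7BHG share are from end 1, which may belong to another gene. The share without end 1 was not computed, so the call is given only with end 1 counted.

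**Figure D2:**
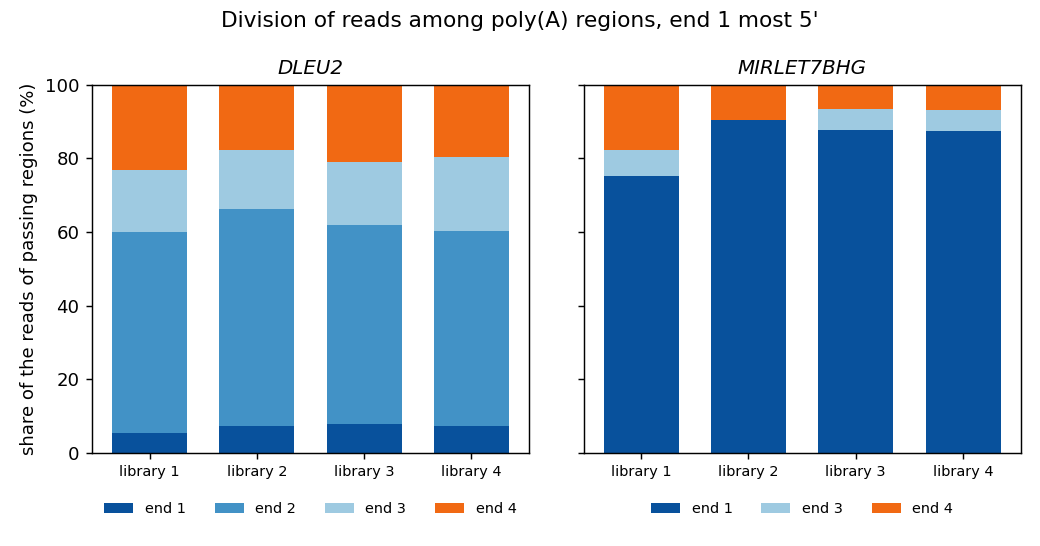
Share of the reads of passing regions (y axis, %) taken by each end in libraries 1 to 4 (x axis), for DLEU2 with 4 passing ends and MIRLET7BHG with 3; end 1 is the most 5'. The DLEU2 bars are alike, with end 2 at 53.0% to 58.8%, while end 4 of MIRLET7BHG takes 17.8% in library 1 and 6.52% to 9.59% in the others.

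The ends in the MIRLET7BHG window need not belong to a single gene. RefSeq places the hairpins of let-7a-3, let-7b, miR-3619 and miR-4763 inside MIRLET7BHG on its strand, and LOC112268288 and LOC124905135, also on the plus strand, overlap it. PRR34-AS1, a noncoding gene also on the plus strand, is among its neighbours on the 5' side. The strong end 1 lies 4100 bases from the 5' edge of the window and the other ends 27797, 52903 and 60815 bases from it. Without an hg19 annotation the ends of these genes cannot be told apart, and end 1, with 80.9% of the reads, decides the level of the window. Without end 1 the window is left with ends 2, 3 and 4, which averaged 1.46, 1.81 and 3.83 CPM.

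**Figure D3:**
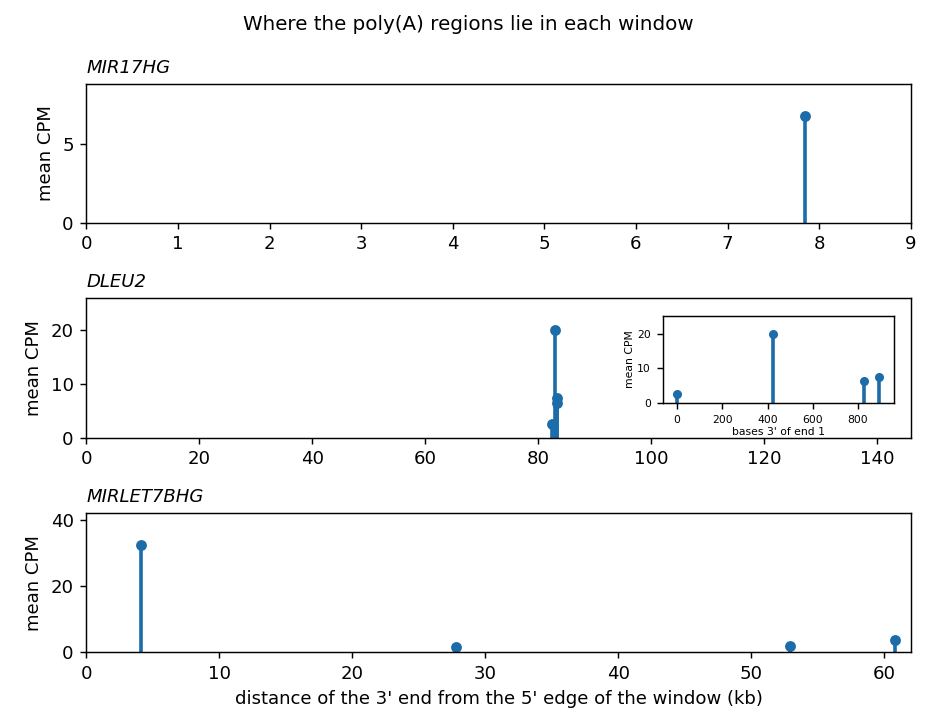
Mean level of each poly(A) region in CPM (y axis) against the distance of its 3' end from the 5' edge of the window in kb (x axis), for the 3 windows with regions; the inset spreads out the DLEU2 ends in bases. MIR17HG has its only end near the 3' edge, the DLEU2 ends lie within 894 bases of each other, and the MIRLET7BHG ends spread over 56715 bases with the strong end most 5'. MIR22HG had no region and is not drawn.

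By window, MIRLET7BHG ranked first with 39.5, 34.7, 42.2 and 41.2 CPM in libraries 1 to 4, or 39.4 ± 3.33 CPM (SD, n = 4). DLEU2 followed with 39.0, 31.4, 33.6 and 41.2 CPM, or 36.3 ± 4.54 CPM, and MIR17HG was the lowest with 6.80 ± 1.84 CPM (SD, n = 4). The values of MIRLET7BHG and DLEU2 overlapped, while every MIR17HG value lay below every value of the others. MIRLET7BHG was 1.09-fold above DLEU2 (mean log2 ratio 0.12 ± 0.15, SD, n = 4; exact two-sided sign-flip permutation p = 0.25), higher in 3 of 4 libraries and equal in library 4. DLEU2 was 5.48-fold above MIR17HG (mean log2 ratio 2.45 ± 0.54, SD, n = 4; exact permutation p = 0.13), higher in 4 of 4 libraries by 4.51, 4.53, 4.57 and 9.65-fold. With 4 libraries the smallest possible p is 0.13, so no ratio of this design can pass 0.05. For MIRLET7BHG against DLEU2 the smallest is 0.25, since flipping the sign of the equal library 4 changes nothing. These are ratios of reads at poly(A) regions of the windows, not of the genes' transcripts as such. The first place of MIRLET7BHG rests on its end 1, which averaged 32.3 CPM and may belong to another gene. Its ends 2, 3 and 4 averaged 1.46, 1.81 and 3.83 CPM, so that without end 1 the window would fall below DLEU2. Its place above MIR17HG in 4 of 4 libraries also rests on end 1.

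**Figure D4:**
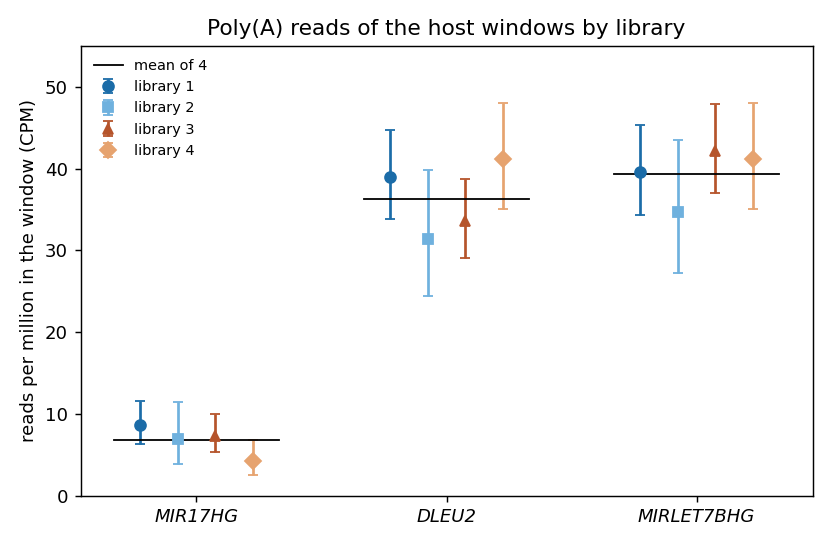
CPM (y axis, linear) summed over the regions of each window (x axis); symbols are the 4 libraries with exact 95% Poisson intervals, and black lines are means. MIRLET7BHG at 34.7 to 42.2 CPM and DLEU2 at 31.4 to 41.2 CPM overlap, and MIR17HG lies at 4.27 to 8.64 CPM. MIR22HG had no region and is not drawn.

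Against the 17963 loci of the whole table, MIRLET7BHG stood above 72.2%, DLEU2 above 70.6% and MIR17HG above 40.6% by mean CPM. The MIRLET7BHG window is a sum over 4 such loci, with most of its reads at end 1, set here against single ones. The highest library exceeded the lowest by 1.22-fold for MIRLET7BHG, 1.31-fold for DLEU2 and 2.02-fold for MIR17HG. A ratio above 2 was thus found for 1 of 3 windows, against 18.5% of the 11100 loci with at least 100 reads and 24.4% of those with 100 to under 1000. For MIR17HG this call rests on libraries 1 and 4: the ratio was 1.72 without library 1 and 1.25 without library 4. It also fell below 2 with TMM library sizes (1.86) and with median-of-ratios size factors (1.90). The median ratio of loci with 100 to under 1000 reads was 1.49. Among single regions with at least 100 reads, 1 of 5 host regions, again that of MIR17HG, passed 2-fold, against 22.3% of such regions in the table.

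Either pair of libraries gave the same order of windows. In it, both the first place of MIRLET7BHG and its wide margin over MIR17HG again rest on its end 1. In libraries 1 and 2 alone the means were 37.1 CPM for MIRLET7BHG, 35.2 CPM for DLEU2 and 7.78 CPM for MIR17HG, and in libraries 3 and 4 alone 41.7, 37.4 and 5.81 CPM. The distal share of DLEU2 was 20.4% in libraries 1 and 2 and 20.2% in libraries 3 and 4. That of MIRLET7BHG, over the same 3 passing ends, was 13.7% and 6.72% in these pairs, and the first value holds the high library 1. No host region was a narrow one: their widths ran from 16 to 51 bases, with 27 bases the median of the table.

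MIR22HG has no value. No region of the table peaked below 11 reads in a library, so a transcript end read less than that, or one lost in the making of regions, leaves no row. The nearest region on the minus strand was at chr17:1606083-1606120, 7.88 kb beyond the 3' edge of the window, with 10, 8, 22 and 10 reads in libraries 1 to 4 and a mean of 2.99 CPM. RefSeq lists TLCD2, RILP and PRPF8, all on the minus strand, as the neighbours on that side, and which of them the region belongs to was not determined. On the 5' side the nearest lay 56.5 kb away. For the other windows the nearest regions outside on the same strand were 37.6 kb (MIRLET7BHG) and 65.9 kb (DLEU2) away or more.

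The locus whose profile over the 4 libraries was most like that of each window was taken by Euclidean distance in log2(CPM + 1). For MIR17HG this was chr3:93591946-93591963 on the minus strand, at a distance of 0.11, with 8.25, 6.47, 7.18 and 4.27 CPM. For DLEU2 it was chr14:74752666-74752702 on the minus strand, at 0.09, with 39.1, 31.4, 35.7 and 41.2 CPM. For MIRLET7BHG it was chr5:173034479-173034915 on the minus strand, at 0.09, with 40.9, 33.3, 41.1 and 40.2 CPM. Within a wider distance of 0.5 lay 62 loci for MIR17HG, 456 for DLEU2 and 623 for MIRLET7BHG. The table names no genes for these positions.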

How the data were processed

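Poly(A)+ RNA was fragmented, size-selected and reverse-transcribed from an anchored oligo(dT) primer, per the labels' protocols. Such a primer can also bind A-rich stretches inside a transcript, which was not tested here. The authors deposited raw read counts, a column for each library and a row for each poly(A) region, per the file headers. Bowtie2 2.2.5 and hg19 are listed in the submitters' processing notes. The joining of reads into regions and any removal of duplicates are not given in the sources used here. Positions are printed as deposited.

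Host regions were those inside the 4 windows. The windows, lists and tests were chosen with earlier results of these data known. Counts were scaled to library totals (CPM). Passing regions had at least 10 reads in all and 5% of the reads of the window or locus; every passing region was named, with the others by their values too. Gene lists that needed an hg19 annotation were not applied. Intervals (exact Poisson, Wilson, 95%) and the 3-count limit behind a 0 reflect counting error alone. They treat reads as independent molecules, which reads are not, so they may be too narrow. The SDs given for counting alone share this limit. Levels of windows were compared by exact sign-flip permutation over libraries. Where nothing says that replicates came from separate cultures, their spread may be partly technical. Python 3.11.15, scipy 1.17.1 and edgeR 4.0.16 (TMM only) were used.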

Additional observations from a re-analysis of the deposited data

Results flagged for a closer look

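Among 18 levels and shares, 2 had a library set well away from the remaining ones. Chance is taken to mark about 1 in 20, but levels and shares come from the same reads and are not independent. The rate over all regions of the table is not given here, so no excess is claimed. Both flagged values were levels of MIRLET7BHG ends with few reads, 68 at end 4 and 36 at end 3 over all libraries. At end 4 (46509800 on chromosome 22), library 1 had 6.72 CPM against 2.63 to 3.23 CPM in the others. At end 3 (46501875), library 2 had 0 CPM, from 0 reads in the smallest library, against 2.26 to 2.69 CPM in the others.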

How the results depend on the processing

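Of 115 recomputed values, 113 stayed within the spread or interval of the reported value or, for counts of regions, within 1.5-fold of it and, for ratios between windows, kept their direction. Some settings could hardly move a value: wider windows, leaving out regions of 5 bases or fewer, and no minimum of reads. The 113 also hold the MIR17HG ratio of highest to lowest library, which fell from 2.02 to 1.25 without library 4. The count is therefore no measure of robustness. Merging 3' ends within 100 bases joined ends 3 and 4 of DLEU2 by construction, and its distal share became 37.8%. With a 10% minimum, MIRLET7BHG kept 1 passing region, so it had no distal share. Leaving out each library in turn gave levels of 38.4 to 41.0 CPM for MIRLET7BHG, 34.7 to 37.9 CPM for DLEU2 and 6.18 to 7.64 CPM for MIR17HG. The distal share then ran from 7.94% to 11.4% for MIRLET7BHG and from 19.3% to 21.2% for DLEU2. The log2 ratio of MIRLET7BHG to DLEU2 ran from 0.05 to 0.16, and that of DLEU2 to MIR17HG from 2.18 to 2.55. Without library 1, MIRLET7BHG had 2 passing regions, end 3 then falling below 5%, and the 7.94% is over those 2. Widening the windows by 5 kb added no region. The values for either pair of libraries were added after seeing the data. No pairing of samples between groups was possible because the series has a single group. Ratios between windows and between strands were taken within each library.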
